A study of Mus musculus with 11 samples.

Results

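The genes examined were those for the ligands, receptors, signal transducers and feedback genes of transforming growth factor beta (TGF-beta), taken as the rows of the liver count table whose symbol was *Tgfb1*, *Tgfb2*, *Tgfb3*, *Tgfbr1*, *Tgfbr2*, *Smad3*, *Smad7*, *Ltbp1* or *Tgfbi*. Of these 9 symbols, 8 had a row among the 13669 genes of the table, and all 8 passed the filter on low counts that left 13334 genes for testing. *Tgfb3* was not analysed here. The rule itself names genes by symbol and uses no threshold on measured values, but it was written with earlier results of these data known.

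The livers came from 11 wild type male mice, 5 in the AAV-NC group and 6 in the AAV-TuD group. Both groups had received a recombinant adeno-associated virus of serotype 8, which the study's methods describe as given through the tail vein at 5e11 genome copies per mouse. In AAV-TuD animals the virus expressed a tough decoy (TuD), an RNA with binding sites that sequester *miR-379* and *miR-541*, and in AAV-NC animals it expressed a negative control (NC) sequence. The LP1 promoter that drove both is active in hepatocytes, whereas the RNA was taken from whole liver. The methods describe C57BL/6J mice on regular chow that arrived at 6 weeks of age, were acclimated for 4 weeks and were killed after a fast of 5 to 6 h, between 4 weeks and 3 months after the virus. The age and time of each of these animals are not given in the sources used here, nor is a sequencing batch.

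TGF-beta is secreted by many liver cells as a latent complex, in which the active dimer is held by its own propeptide and by a latent TGF-beta binding protein that anchors it to the matrix. Once released, the ligand binds the type II receptor, which recruits and phosphorylates the type I receptor, and the latter phosphorylates Smad2 and Smad3. These enter the nucleus with Smad4 and switch on matrix genes as well as *Smad7*, whose product blocks the receptor in a negative feedback. In liver the pathway is best known as a driver of collagen production by hepatic stellate cells and as a brake on hepatocyte proliferation.

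The decoy acts on miRNAs, and the seed of a miRNA, bases 2 to 8 from its 5′ end, is the part that pairs with target transcripts. Both mature miRNAs are shown because the sites searched for in the TGF-beta genes were derived from them, with the seed in capitals. The sequences are those of RefSeq on GRCm38.p6, where the plus strand of chromosome 12 holds *miR-379-5p* at chr12:109709065-109709085 and *miR-541-5p* at chr12:109742422-109742446.
miR-379-5p: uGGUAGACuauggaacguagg
miR-541-5p: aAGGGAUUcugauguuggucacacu
The letters that pair with these seeds are GTCTACC for *miR-379-5p* and AATCCCT for *miR-541-5p*, and they were searched on the sense strand of the longest annotated 3′ UTR of each of the 9 genes. GTCTACC was in none of the 9, among them the 3′ UTRs of *Tgfb2* (2656 bases), *Ltbp1* (1214 bases) and *Tgfbi* (601 bases). AATCCCT occurred 1 time in *Tgfbr1*, at bases 3583 to 3589 of a 3′ UTR of 4154 bases, and in none of the other genes. The *Tgfbr1* match is shown with its surroundings, from chr4:47414349-47414374 on the plus strand of GRCm38, with the letters that pair in capitals.
Tgfbr1 3′ UTR: tgtgttttgatAATCCCTttttcaca
Of the 10928 tested genes with an annotated 3′ UTR, 5.20% held GTCTACC and 8.95% held AATCCCT. Among the 917 of them that were higher with AAV-TuD, these shares were 5.34% and 9.92%. A match is a description of the letters, and the absence of a match in these 3′ UTRs says nothing of pairing elsewhere in a transcript. The study also reported lower hepatic levels of *miR-382*, *miR-134* and *miR-409* with the decoy, and of *lncMGC* and *Mirg*, transcripts that host the miRNA cluster. Seeds of these and other miRNAs were not searched, so the search does not cover all miRNAs that the decoy lowered.

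Libraries were made with a QuantSeq kit, which yields 1 tag from the 3′ end of each polyadenylated transcript, so that counts of different genes can be set side by side without correction for length. The total on genes was 8148531 to 12043959 reads a liver. Major urinary protein (*Mup*) genes took 40.2% of the reads of AAV-NC 7, 32.3% of AAV-TuD 3 and 29.6% of AAV-TuD 5, against 8.58% to 19.5% in the other 8 livers, and levels are therefore given as CPM, counts scaled to a common library size, with library sizes scaled by the TMM factors of edgeR. The label of liver was borne out by hepatocyte markers, whose 10 genes together had between 36310 and 49970 CPM. Nothing in the labels says that any of the 11 samples share an animal, and no pair of libraries agreed within counting noise.

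With AAV-TuD, transcripts for the ligand *Tgfb2*, for the latency protein *Ltbp1* and for the TGF-beta induced matrix protein *Tgfbi* were each more than doubled, with log2 fold changes of 1.24, 1.04 and 1.04. The type II receptor *Tgfbr2* had 1.42-fold higher fitted levels but missed the threshold. The transcripts of *Tgfb1*, *Tgfbr1*, *Smad3* and the feedback inhibitor *Smad7* had fitted changes between 1.05 and 1.26-fold, and none passed the test. Thus 3 of the 8 genes tested were called, all 3 higher and none lower, at an adjusted p under 0.05 in edgeR's quasi-likelihood test, adjusted by Benjamini and Hochberg's method over all 13334 genes. Of all genes tested, 11.6% were called in either direction, 7.24% higher and 4.33% lower. The median log2 fold change was 0.42 over the 8 genes and 0.00 over all genes tested. All 8 fitted changes were above 0, as were those of 6608 of the 13334 genes. The filter asked for more than 10 reads in 5 livers, which the 6 AAV-TuD livers could meet alone. *Tgfb2* had 11, 12, 14, 6 and 13 reads in the AAV-NC livers and *Tgfb1* 15, 12, 18, 8 and 27. Neither would have met the filter from the AAV-NC livers alone. Low genes could thus be tested because of their AAV-TuD level, which tilts such counts toward higher.

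**Figure D1:**
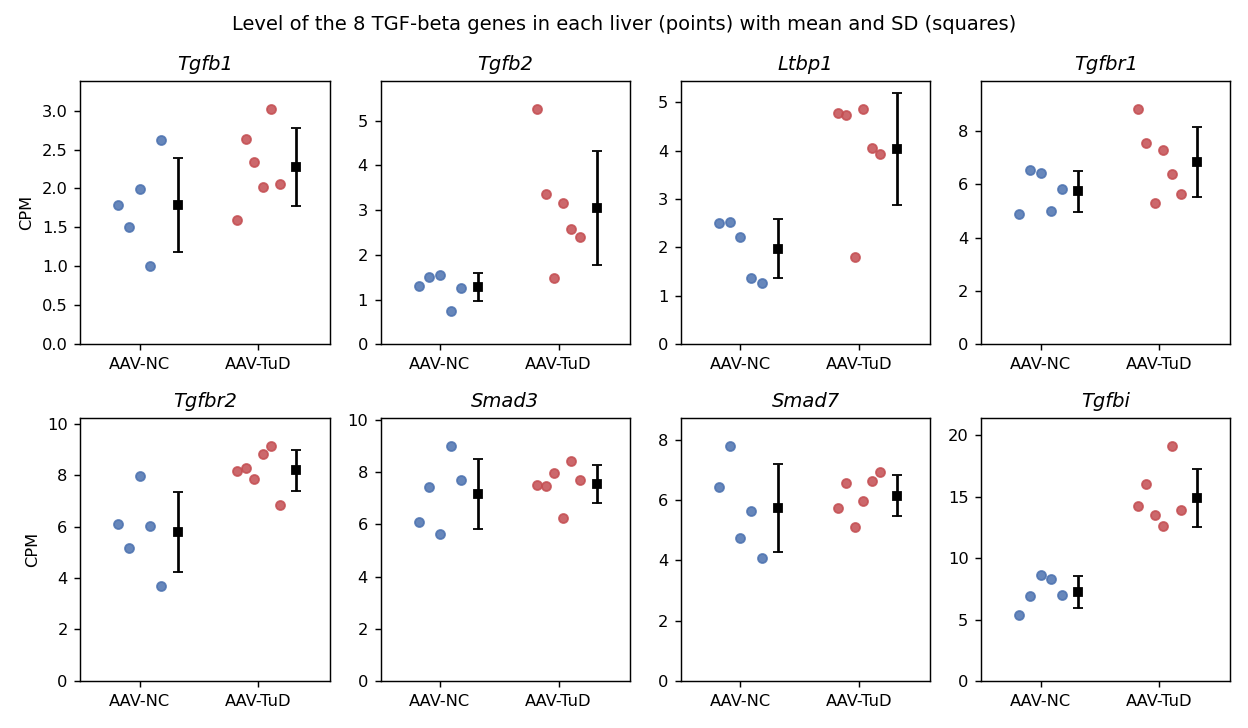
Level of each TGF-beta gene in CPM (TMM-scaled, linear axis from 0) in 5 AAV-NC livers (blue points) and 6 AAV-TuD livers (red points), with the group mean and SD as a square and bar. The AAV-TuD livers lie wholly above the AAV-NC livers for *Tgfbi* alone, and 5 of 6 do so for *Tgfb2* and *Ltbp1*, where the exception is AAV-TuD 5.

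Among the ligands, *Tgfb1* encodes the isoform most abundant in many tissues and *Tgfb2* a second isoform that needs betaglycan to bind the type II receptor efficiently. *Tgfb2* (ENSMUSG00000039239, chromosome 1 of GRCm38 from 186622792 to 186705989, minus strand) had 1.31, 1.51, 1.55, 0.751 and 1.27 CPM in AAV-NC livers 1, 2, 6, 7 and 8. In the AAV-TuD livers it lay between 1.49 CPM in liver 5 and 5.26 CPM in liver 3, with a median of 2.87. Hence 5 of 6 AAV-TuD livers were above every AAV-NC liver, and AAV-TuD 5 fell inside the AAV-NC range. The mean rose from 1.28 ± 0.319 CPM (SD, n = 5) to 3.04 ± 1.27 CPM (SD, n = 6), a log2 fold change of 1.24 (standard error 0.30, 95% interval 0.60 to 1.89, adjusted p = 0.0156 in edgeR's quasi-likelihood test). The two-sided exact permutation test over the 462 splits of the livers gave p = 0.00866 for the difference in its log2 CPM. *Tgfb2* was a low transcript, with 6 to 56 reads per liver, and at its mean of 23.6 reads counting error alone gives a coefficient of variation of 20.6%, against 25% measured in AAV-NC and 41.8% in AAV-TuD livers. The annotation places an antisense gene, *Gm29491*, over exons of *Tgfb2*, and the strand setting of the counting is not given in the sources used here, so reads of the antisense gene cannot be told apart from its own.

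*Tgfb1* (ENSMUSG00000002603, chromosome 7 from 25687002 to 25705077, plus strand) had 1.79, 1.51, 1.99, 1.0 and 2.63 CPM in the AAV-NC livers, in the same order. The AAV-TuD livers ran from 1.6 CPM in liver 3 to 3.02 CPM in liver 10, with a median of 2.19. The groups overlapped, since 2 of 6 AAV-TuD livers exceeded every AAV-NC liver. The log2 fold change was 0.33 (95% interval -0.20 to 0.86, adjusted p = 0.435 in edgeR), so that neither a small decrease nor a 1.5-fold increase lay outside the interval. *Tgfb1* had 8 to 35 reads per liver, and its coefficient of variation was 33.7% in AAV-NC livers and 22.1% in AAV-TuD livers, against 21.8% from counting error at its mean of 21.1 reads.

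The relation between the ligands differed by liver. The ratio of *Tgfb2* to *Tgfb1* reads within a liver, which does not depend on the scaling of libraries, ran from 0.491 to 1.0 in AAV-NC livers (median 0.765) and from 0.644 to 3.23 in AAV-TuD livers (median 1.22). *Tgfb1* was the higher of these ligands in 4 of 5 AAV-NC livers, and *Tgfb2* in 4 of 6 AAV-TuD livers. The ratio was described without a test, and it rests on small counts in every liver.

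*Ltbp1* encodes the latent TGF-beta binding protein that is disulphide-linked to the propeptide and directs the latent complex to fibrillin-rich matrix. The gene (ENSMUSG00000001870, chromosome 17 from 75005568 to 75392512, plus strand) had 2.51, 2.52, 2.21, 1.38 and 1.27 CPM in AAV-NC livers 1, 2, 6, 7 and 8. The AAV-TuD livers lay between 1.81 CPM in liver 5 and 4.86 CPM in liver 9, with a median of 4.40. AAV-TuD 5 again fell inside the AAV-NC range, and the other 5 were above all AAV-NC livers. The mean increased from 1.98 ± 0.611 CPM (SD, n = 5) to 4.03 ± 1.16 CPM (SD, n = 6), with a log2 fold change of 1.04 (standard error 0.27, 95% interval 0.48 to 1.61, adjusted p = 0.0189 in edgeR; two-sided exact permutation test p = 0.0108). Reads numbered 11 to 60 per liver. With 1 liver left out at a time the adjusted p of *Ltbp1* in edgeR ranged from 0.00341 to 0.0494.

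*Tgfbi* encodes a secreted matrix protein that binds collagens and integrins and takes its name from its induction by TGF-beta. The gene (ENSMUSG00000035493, chromosome 13 from 56609523 to 56639562, plus strand) had 5.37, 6.92, 8.63, 8.26 and 7.01 CPM in the AAV-NC livers. Its lowest AAV-TuD liver was liver 9 with 12.6 CPM, its highest liver 10 with 19.1 CPM, and the median was 14.1. Here the groups did not overlap, and each of the 6 AAV-TuD livers exceeded each of the 5 AAV-NC livers, as for 4.11% of all genes tested (7.39% did not overlap in either direction). The mean rose from 7.24 ± 1.29 CPM (SD, n = 5) to 14.9 ± 2.36 CPM (SD, n = 6), a log2 fold change of 1.04 (standard error 0.14, 95% interval 0.75 to 1.34, adjusted p = 4.39e-04 in edgeR). It ranked at position 49 of the 13334 genes by p, and its exact permutation p of 0.00216 is the smallest that 6 against 5 livers allow. *Tgfbi* was also the best measured of the 8 genes, with 45 to 222 reads per liver.

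**Figure D2:**
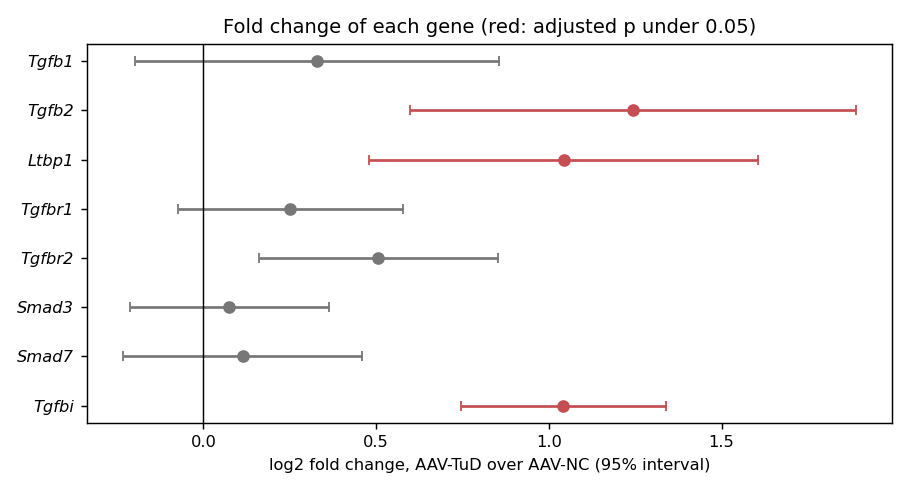
Log2 fold change of AAV-TuD over AAV-NC for each TGF-beta gene from the edgeR fit over all genes (points), with 95% intervals (bars) and adjusted p under 0.05 in red. The intervals of *Tgfb2*, *Ltbp1*, *Tgfbr2* and *Tgfbi* lie above 0, and those of *Tgfb1*, *Tgfbr1*, *Smad3* and *Smad7* include 0.

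Among the receptors, *Tgfbr2* encodes the type II serine/threonine kinase that binds the ligand first. It (ENSMUSG00000032440, chromosome 9 from 116084293 to 116175360, minus strand) had 6.09, 5.16, 7.97, 6.01 and 3.70 CPM in the AAV-NC livers. In AAV-TuD it ranged from 6.84 CPM in liver 11 to 9.14 CPM in liver 10, with a median of 8.23. AAV-NC 6 stood above the other AAV-NC livers, and 4 of 6 AAV-TuD livers lay above it. The means were 5.79 ± 1.55 CPM (SD, n = 5) and 8.19 ± 0.806 CPM (SD, n = 6), with a log2 fold change of 0.51 (standard error 0.16, 95% interval 0.16 to 0.85, adjusted p = 0.0553 in edgeR). This did not pass the threshold, although the exact permutation test of the gene alone gave p = 0.0108. The call depended on the setting, since DESeq2 (adjusted p = 0.0377), edgeR with library size alone (0.0234) and edgeR without AAV-NC 6 (0.0192) each placed *Tgfbr2* past it. At an adjusted p under 0.1, which *Tgfbr2* met, 18.1% of all genes were called.

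*Tgfbr1* encodes the type I receptor, the kinase that phosphorylates Smad2 and Smad3. The transcript (ENSMUSG00000007613, chromosome 4 from 47353222 to 47414931, plus strand), the only one of the set with a *miR-541-5p* seed match, had 4.89, 6.55, 6.42, 5.01 and 5.84 CPM in AAV-NC livers. The AAV-TuD livers lay between 5.31 CPM in liver 5 and 8.83 CPM in liver 3, with a median of 6.83, and 3 of 6 exceeded all AAV-NC livers. Its log2 fold change was 0.25 (95% interval -0.07 to 0.58, adjusted p = 0.322 in edgeR), which did not exceed the spread between livers. The ratio of *Tgfbr2* to *Tgfbr1* reads had a median of 1.20 in AAV-NC livers (range 0.636 to 1.24) and 1.21 in AAV-TuD livers (0.926 to 1.48).

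*Smad3* encodes the receptor-activated transcription factor most closely tied to matrix genes. Its transcript (ENSMUSG00000032402, chromosome 9 from 63646767 to 63757994, minus strand) had 6.09, 7.43, 5.65, 9.01 and 7.69 CPM in AAV-NC livers, and between 6.23 CPM in liver 9 and 8.45 CPM in liver 10 (median 7.60) with AAV-TuD. No AAV-TuD liver was above the highest AAV-NC liver. *Smad7* (ENSMUSG00000025880, chromosome 18 from 75367529 to 75395935, plus strand), the inhibitory Smad, had 6.45, 7.81, 4.76, 5.63 and 4.09 CPM with AAV-NC. With AAV-TuD it had between 5.10 CPM in liver 5 and 6.93 CPM in liver 11, with a median of 6.28, and again none exceeded the AAV-NC maximum. The log2 fold changes were 0.08 for *Smad3* (95% interval -0.21 to 0.36, adjusted p = 0.783 in edgeR) and 0.11 for *Smad7* (95% interval -0.23 to 0.46, adjusted p = 0.717 in edgeR). Both intervals exclude a doubling of the transcript. The ratio of *Smad7* to *Smad3* reads had medians of 0.845 and 0.832 in AAV-NC and AAV-TuD livers.

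In order of mean level, *Tgfbi* (7.24 CPM) led the AAV-NC livers, followed by *Smad3* (7.17), *Tgfbr2* (5.79), *Smad7* (5.75), *Tgfbr1* (5.74), *Ltbp1* (1.98), *Tgfb1* (1.79) and *Tgfb2* (1.28). The first 5 were not ordered in the same way from liver to liver, and *Tgfbi* exceeded *Smad3* in only 1 of 5. A gap separated *Tgfbr1* from *Ltbp1*, with *Tgfbr1* higher in 5 of 5 livers and a median ratio of 2.85. In AAV-TuD livers *Tgfbi* (14.9 CPM) stood apart at the top, above *Tgfbr2* (8.19 CPM) in 6 of 6 livers with a median ratio of 1.83. *Smad3* (7.56), *Tgfbr1* (6.84) and *Smad7* (6.16) followed, with neighbours not separated beyond their spread. The gap to *Ltbp1* (4.03) was narrower, with *Smad7* higher in 6 of 6 livers at a median ratio of 1.5, and *Tgfb2* (3.04) and *Tgfb1* (2.28) came last.

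**Figure D3:**
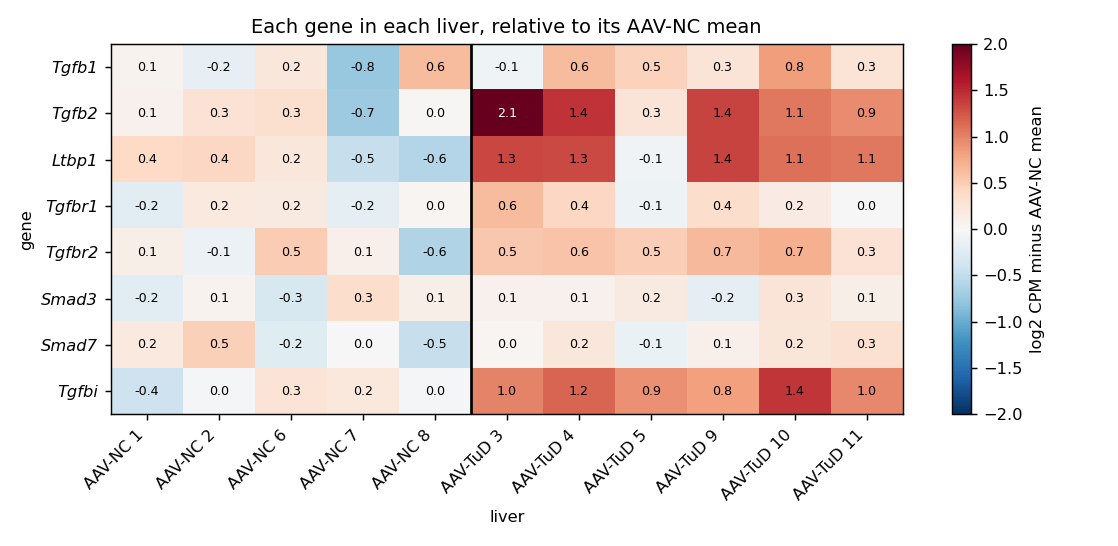
Log2 CPM of each TGF-beta gene (rows) in each liver (columns) minus the mean of that gene in AAV-NC livers, with the value in each cell and the groups divided by a line. *Tgfb2*, *Ltbp1* and *Tgfbi* are red across AAV-TuD livers, except that *Tgfb2* and *Ltbp1* in AAV-TuD 5 stay near their AAV-NC mean while *Tgfbi* in that liver does not.

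Livers did not behave alike for all 3 higher genes. AAV-TuD 5 had the lowest *Tgfb2*, *Ltbp1*, *Tgfbr1* and *Smad7* of its group, but its *Tgfbi*, at 13.5 CPM, was far above the AAV-NC maximum of 8.63 CPM. AAV-TuD 3 had the highest *Tgfb2* and *Tgfbr1* and the lowest *Tgfb1* of the group. Both livers are among the 3 with most *Mup* reads. Without these 3 livers (AAV-NC 7, AAV-TuD 3 and AAV-TuD 5), a setting chosen after the data had been seen, the same 3 genes were called in edgeR, and the log2 fold change of *Tgfb2* was 1.03.

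The genes whose profile lay closest to that of each called gene were sought among 8367 tested genes averaging 50 reads or more, by the root mean square distance of log2 CPM, each centred on its AAV-NC mean, over the 11 livers. For *Tgfbi* these were *Bgn* (distance 0.149), which encodes the matrix proteoglycan biglycan, and *Sparc* (0.221), which encodes a collagen-binding matrix protein. For *Ltbp1* they were *Fmo2* (0.247), a flavin monooxygenase, and *Vim* (0.252), the intermediate filament of mesenchymal cells. For *Tgfb2* the same 2 genes came first, *Vim* at 0.277 and *Fmo2* at 0.336. The centred profiles themselves had a root mean square of 0.789 for *Tgfbi*, 0.822 for *Ltbp1* and 0.906 for *Tgfb2*. With profiles centred on the AAV-NC mean, a small distance also reflects a like shift between the groups. *Bgn*, *Sparc*, *Vim* and *Fmo2* had log2 fold changes of 0.91, 0.90, 0.94 and 0.75. Nearness here is therefore not a measure of variation between livers apart from the group difference. These distances describe the 11 livers and were not tested.

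The wider pathway was described with 6 lists of 101 genes in all, of which 77 were tested. In the same edgeR fit 12 of the 77 were higher and 3 lower with AAV-TuD, so that 19.5% were called, against 11.6% of all genes tested. Their median log2 fold change was 0.16. As with *Tgfb2*, low genes of these lists could pass the filter through their AAV-TuD level, which tilts the counts toward higher. The share called ran from 1 of 10 co-receptors and receptor regulators to 5 of 14 known target genes (35.7%). It lay between 11.1% and 22.2% in the other lists. Each list had only 1 to 5 calls, and differences in share between the lists were not tested.

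The list of 21 genes known as TGF-beta targets had 14 tested, 5 higher and none lower, with a median log2 fold change of 0.51. Each of the 5 encodes a matrix protein or an enzyme acting on the matrix, and *Postn*, which encodes the matrix protein periostin, was not called (log2 fold change 0.42, adjusted p = 0.395 in edgeR). The fibrillar collagen genes *Col3a1* (9.17 ± 1.37 CPM to 34.4 ± 8.08 CPM), *Col1a1* (2.90 ± 0.667 to 14.2 ± 3.97 CPM) and *Col1a2* (13.2 ± 2.70 to 34.6 ± 7.80 CPM; SD, n = 5 and 6) had log2 fold changes of 1.91, 2.30 and 1.40 and adjusted p of 1.52e-05, 3.88e-05 and 1.93e-04 in edgeR. *Bgn* (log2 fold change 0.91) and *Loxl2*, a collagen cross-linking enzyme (1.07), were also higher. In all 5, which were picked by their calls, every AAV-TuD liver exceeded every AAV-NC liver, as for 4.11% of all genes tested. The transcription factor genes tested in the list did not pass, among them *Junb* (0.48, adjusted p = 0.163 in edgeR), *Klf10* (0.09) and *Snai2* (-0.02). *Ccn2*, the connective tissue growth factor gene, had a log2 fold change of 0.81 that also missed the threshold (adjusted p = 0.188 in edgeR), and *Fn1*, which hepatocytes express strongly, had -0.21 (adjusted p = 0.138 in edgeR). The targets of the list that were not tested were not analysed here.

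Among 9 tested genes for latency and activation, *Fbn1*, the fibrillin to which latent complexes attach, rose from 1.5 ± 0.408 CPM (SD, n = 5) to 3.42 ± 0.795 CPM (SD, n = 6), with a log2 fold change of 1.18 and an adjusted p of 0.00601 in edgeR. *Furin*, the protease that cleaves the propeptide, fell from 106 ± 8.55 to 87.7 ± 7.66 CPM (log2 fold change -0.28, adjusted p = 0.0305 in edgeR), but this call was lost with library size alone, without the 3 livers richest in *Mup* reads, and without any of AAV-NC 1, AAV-NC 7, AAV-TuD 4 or AAV-TuD 11 (adjusted p 0.0509 to 0.0807 in edgeR). The integrin and anchor genes *Itgb8* (0.67), *Lrrc32* (0.64) and *Nrros* (0.42) did not pass. The median log2 fold change of the list was 0.42.

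Of 10 co-receptors and receptor regulators, with a median log2 fold change of 0.25, only *Eng*, the endothelial co-receptor endoglin, was called. It had 13.4 ± 1.93 CPM with AAV-NC and 17.7 ± 1.6 CPM with AAV-TuD (log2 fold change 0.40, adjusted p = 0.0269 in edgeR), and the call was lost without AAV-NC 1, AAV-NC 6 or AAV-TuD 10 (adjusted p 0.0558 to 0.0615 in edgeR) and without the 3 livers richest in *Mup* reads. *Tgfbr3*, which encodes the betaglycan that presents TGF-beta2, had a log2 fold change of 0.40 that did not pass (adjusted p = 0.201 in edgeR).

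Among 9 other Smads and cofactors, whose median log2 fold change was -0.02, *Smad4*, the common partner, was lower, with 16.9 ± 0.994 CPM against 14.0 ± 0.591 CPM and a log2 fold change of -0.27 (adjusted p = 0.0433 in edgeR). This call was lost when any 1 of the 11 livers was left out (adjusted p 0.0550 to 0.110 in edgeR) and with DESeq2, upper-quartile factors, library size alone or the 3 livers richest in *Mup* reads removed. *Smad2*, which the type I receptor phosphorylates together with *Smad3*, had 0.27 (adjusted p = 0.179 in edgeR).

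Among 11 repressors and ubiquitin regulators, with a median log2 fold change of -0.10, *Pmepa1*, a TGF-beta induced gene whose product keeps Smads from the receptor, rose from 9.13 ± 1.90 CPM (SD, n = 5) to 19.5 ± 4.60 CPM (SD, n = 6). This was a log2 fold change of 1.09 (standard error 0.18, adjusted p = 0.00174 in edgeR), and 5 of 6 AAV-TuD livers were above all AAV-NC livers. *Pmepa1* and *Smad7* are both negative feedback genes, and only the former was called. The ubiquitin ligase gene *Wwp1* was lower (log2 fold change -0.31, adjusted p = 0.0418 in edgeR), which held without AAV-NC 8 or AAV-TuD 3 and was lost without each of the other 9 livers (adjusted p 0.0555 to 0.0972 in edgeR) and with library size alone. *Ski*, *Skil*, *Smurf1* and *Smurf2* did not pass, with log2 fold changes of 0.26, -0.10, -0.16 and -0.10.

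The related activin and bone morphogenetic protein (BMP) genes had 24 tested, 4 higher and none lower, with a median log2 fold change of 0.07. The higher genes were the ligands *Gdf2* (7.22 ± 1.22 to 14.1 ± 1.83 CPM, log2 fold change 0.96), *Gdf10* (1.96 ± 0.541 to 4.98 ± 0.696 CPM, 1.34) and *Bmp4* (11.9 ± 3.57 to 18.4 ± 3.17 CPM, 0.63), and *Fstl1*, a secreted follistatin-like protein (3.70 ± 0.754 to 8.14 ± 2.03 CPM, 1.14; SD, n = 5 and 6). Their adjusted p values in edgeR were 5.12e-04 for *Gdf2*, 7.27e-04 for *Gdf10*, 0.00260 for *Fstl1* and 0.0250 for *Bmp4*. The call of *Bmp4* was lost without any of AAV-NC 1, AAV-NC 2, AAV-NC 8, AAV-TuD 4 or AAV-TuD 10 (adjusted p 0.0543 to 0.0640 in edgeR). None of the BMP or activin receptor genes tested passed, nor did the BMP targets *Id1* (0.68, adjusted p = 0.0551 in edgeR), *Id2* (-0.02, 0.932) and *Id3* (-0.31, 0.354).

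**Figure D4:**
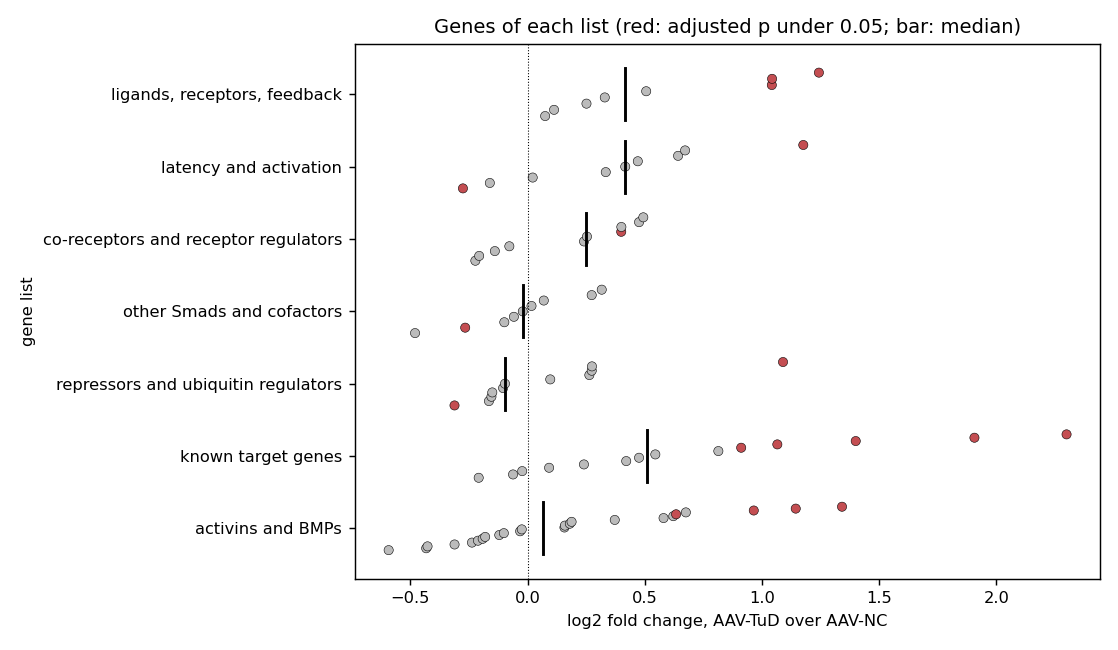
Log2 fold change of AAV-TuD over AAV-NC for every tested gene (point) of the 8 TGF-beta genes and of 6 further lists, with adjusted p under 0.05 in red and the median of each list as a bar. The 5 red points among the known target genes lie between 0.91 and 2.30, and the red points below 0 are *Furin*, *Smad4* and *Wwp1*.

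Markers of several non-parenchymal cell types were also higher with AAV-TuD. Among all genes tested, 7.24% were called higher and 4.33% lower. Of 12 tested stellate cell markers, 8 were higher with AAV-TuD and none lower (median log2 fold change 0.76). Their summed level was 213 to 274 CPM in AAV-NC livers and 359 to 465 CPM in AAV-TuD livers. AAV-TuD 5 was the lowest of its group, followed by AAV-TuD 3 with 363 CPM. *Dcn* made up most of this sum, with 150 CPM in AAV-NC and 259 CPM in AAV-TuD livers, while *Lrat*, the retinol-esterifying enzyme that defines quiescent stellate cells, had 10.9 and 21.2 CPM. More cells of a type and more RNA per cell cannot be told apart in whole liver. Of the macrophage markers 8 of 11 were higher (127 to 189 CPM summed in AAV-NC, 144 to 407 CPM in AAV-TuD), of the monocyte and neutrophil markers 3 of 4 (24.7 to 41.1 CPM and 42.1 to 103 CPM), of the cholangiocyte markers 4 of 5 (24.0 to 45.6 CPM and 51.3 to 83.9 CPM) and of the platelet markers 1 of 4 (8.12 to 11.1 CPM and 10.7 to 15.4 CPM). By contrast, none of 12 sinusoidal endothelial markers was called, with sums of 355 to 388 CPM in AAV-NC and 350 to 380 CPM in AAV-TuD livers. AAV-TuD 3, the liver with the highest *Tgfb2*, had the lowest macrophage, monocyte and neutrophil, and platelet sums of its group. The lowest cholangiocyte sum of that group was in AAV-TuD 5. Most of the monocyte and neutrophil sum came from *Cybb* (15.4 CPM in AAV-NC and 27.2 CPM in AAV-TuD livers) and *Lyz2* (14.8 and 37.4 CPM). In that list *S100a9* was not called (log2 fold change 0.32, adjusted p = 0.684 in edgeR). Hepatocyte markers had 2 of 10 lower and none higher in the test, and their sum, 36310 to 42450 CPM in AAV-NC, was 43670 to 49970 CPM in AAV-TuD livers. *Alb*, which encodes albumin, made up most of that sum and had 21100 and 28040 CPM in the groups, whereas 8 of the 10 markers had log2 fold changes below 0 and the median was -0.13. The stellate marker *Gfap*, 6 monocyte and neutrophil, 4 cholangiocyte, 4 platelet and all 11 lymphocyte markers were not analysed here, and 2 further cholangiocyte markers fell under the filter. That filter asked for more than 10 reads in 5 livers, which the 6 AAV-TuD livers could meet alone. *Epcam*, *Ccr2* and *Pf4*, for example, had at most 1.13, 1.19 and 1.01 CPM in AAV-NC livers. Low markers could thus be tested because of their AAV-TuD level, which tilts the counts of such lists toward higher.

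Reads of each gene were also set against marker reads of the same liver, as a description without a test. *Tgfb2* had a median of 5.65 reads per 1000 stellate marker reads in AAV-NC livers and 6.56 in AAV-TuD livers, *Ltbp1* 8.07 and 10.4, and *Tgfbi* 31.5 and 38.0. The ranges of these 3, as of the other 5 genes, overlapped between the groups, with 3, 2 and 4 of 6 AAV-TuD livers above the AAV-NC maximum. *Tgfb1*, *Tgfbr1*, *Tgfbr2*, *Smad3* and *Smad7* had lower medians, with AAV-TuD to AAV-NC ratios of 0.791, 0.665, 0.794, 0.567 and 0.617. *Dcn*, most of the stellate sum, was 1.73-fold higher, and the 12 markers ranged from 1.45-fold (*Ngfr*) to 2.52-fold (*Pdgfra*). Values set against the stellate sum therefore depend on the markers that make it up. Set against the endothelial markers, the ratios of medians were 2.22 for *Tgfb2*, 2.05 for *Ltbp1*, 1.97 for *Tgfbi*, 1.40 for *Tgfbr2* and 1.0 for *Smad3*. For *Tgfb2*, *Ltbp1* and *Tgfbi* they were 1.2, 0.984 and 1.01 against the macrophage markers, and 0.894, 1.05 and 0.944 against the cholangiocyte markers. The part of cell composition in the levels of the TGF-beta genes was not tested.

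*Tgfb2*, *Ltbp1* and *Tgfbi* were each called higher, although in AAV-TuD 5 only *Tgfbi* lay above the AAV-NC range. The promoter windows of RefSeq (GRCm38.p6, 250 bases before to 50 after a start, 300 bases in all) were searched on both strands for the letters CAGACA. Smad3 and Smad4 can bind these letters, which read as TGTCTG from the opposite strand. The windows were also searched for GTCTAGAC, a palindrome that the same proteins bind and that does not contain CAGACA. Windows were at hand for 7 of the 9 genes. The matches are shown with their surroundings, in the direction of transcription and with the motif in capitals, for *Tgfb2* on the minus strand at chr1:186706176-186706205, where the motif began 204 bases before the start, and for a downstream start of *Ltbp1* on the plus strand at chr17:75178620-75178649 (149 bases before) and chr17:75178671-75178700 (98 bases before).
Tgfb2 promoter: ccttggtgatcaCAGACAgtgactactgca
Ltbp1 promoter, first match: attacatctgccTGTCTGtcgggggttggc
Ltbp1 promoter, second match: gatgttgctcttTGTCTGcccgtgaataaa
*Tgfbr1*, which was not called, also held 1 match at a start of its own, and no window of *Tgfbi* held one. The window at the upstream start of *Ltbp1* (chr17:75005279-75005578) held none. Neither did the other window of *Tgfbr1* or those of *Tgfb1*, *Tgfbr2* and *Smad3*. Of 32851 promoter windows of mouse genes, 21% held CAGACA in either orientation and 0.213% held GTCTAGAC, which was in none of the windows of the 7 genes. A motif match is a description of the sequence and not a binding site.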

How the data were processed

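Liver RNA of 5 AAV-NC and 6 AAV-TuD mice was examined. The authors prepared QuantSeq 3′ libraries from 500 ng RNA, trimmed with BBDuk, aligned to GRCm38 by STAR (2.5.3a per the submitters' notes, which also name DESeq2 1.38.3) and counted per gene with Rsubread. The deposited values are counts of reads per gene, without normalization, for genes that reach 10 reads in 5 or more livers. Annotation, strand setting and treatment of multiply mapped reads are not given in the sources used here. Gene positions are those of GENCODE M21, which holds 13658 of the identifiers. Samples were grouped by their labels, and no column of other samples was present.

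Genes exceeding 10 reads in 5 or more livers entered edgeR 4.0.16 (R 4.3.3) and its quasi-likelihood test, with TMM factors, group as the only term and Benjamini-Hochberg adjustment over all genes. The procedure was tested on simulated data. CPM used TMM-scaled library sizes, log2 CPM a prior count of 2 and ratios a pseudocount of 0.5. Single genes were also compared by two-sided exact permutation of log2 CPM. The p-values set the group difference against the spread between these samples. With no more information on the animals, a batch or time that differed between the groups could not be told apart from the virus.

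The genes, lists and tests were chosen with earlier results of these data known. Named genes were all 9 TGF-beta genes, up to 6 called genes of each pathway list by smallest p, and for each called TGF-beta gene the 2 genes nearest in profile, and other list genes and markers were named after their values were seen. Alternatives were DESeq2 1.42.0, its size factors, upper-quartile factors, library size alone, limma 3.58.1 (voom with quality weights), no filter, the filter of edgeR, removal of *Mup* genes or of the 50 genes with most reads, a prior count of 0.5 and each liver left out. A fit without the 3 livers with over 25% *Mup* reads was added after seeing the data.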

Additional observations from a re-analysis of the deposited data

Results flagged for a closer look

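In the AAV-TuD group, the *Ltbp1* level of liver 5 (1.81 CPM) stood apart from the other 5 livers (3.93 to 4.86 CPM), with a gap of 0.697 of the whole range, above Dixon's critical value of 0.625 for 6 samples. It was the only one of 16 groups of values examined (8 genes in each group of livers) that did so, where chance gives 0.8. Without AAV-TuD 5 the log2 fold change of *Ltbp1* was 1.19, against 1.04 with it.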

How the results depend on the processing

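*Tgfb2*, *Ltbp1* and *Tgfbi* were called higher in each of the 21 alternatives run, and 3 to 4 of the 8 genes were called with 1 liver left out, the fourth being *Tgfbr2*. Their log2 fold changes ran from 1.03 to 1.38, 0.91 to 1.19 and 0.95 to 1.11 with 1 liver left out and from 1.03 to 1.45, 0.97 to 1.28 and 1.03 to 1.30 in the other alternatives. *Tgfbr2* was called in 3 alternatives, named above, and *Tgfb1*, *Tgfbr1*, *Smad3* and *Smad7* in none. The direction of *Smad3* turned without AAV-NC 6, to -0.0015, and its values with 1 liver left out reached 0.17 (without AAV-NC 7). *Smad7* ran from 0.0075 (without AAV-NC 8) to 0.25 (without AAV-NC 2), and *Tgfb1* from 0.19 (without AAV-NC 7) to 0.52 (without AAV-NC 8). The number of genes called was 1012 to 1829 with 1 liver left out, lowest without AAV-TuD 4 and highest without AAV-TuD 3, and that of pathway genes 10 (without AAV-NC 1) to 17 (without AAV-TuD 3). The cause was not tested. Library size alone moved the median change over all genes to 0.23 on the log2 scale, and 95.1% of calls were then higher, against 62.6% with TMM. On that scale *Tgfbi* had a log2 fold change of 1.30, and *Smad3* 0.33 and *Smad7* 0.36, which did not pass. No paired analysis was possible because the groups share no replicate number. *Tgfb1*, *Tgfb2* and *Ltbp1* had at most 60 reads in a liver, which limits the precision of their values.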
